A study of Mus musculus with 21 samples.

Results

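A set of 10 antioxidant enzyme genes was read in RNA of mouse fibro-adipogenic progenitors (FAPs), the mesenchymal progenitors of skeletal muscle. The 10 genes were taken by symbol from the 55341 genes of the count table, and the set was built around Sod1, whose lower counts in the libraries labelled Prdm16 had already been seen in these data. The RNA values of the 10 are therefore given as a description of the libraries, and the same comparison lends them no support. All 10 passed the filter on low counts.

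Cells that respire leak superoxide, a reactive form of oxygen. Superoxide dismutases turn it into hydrogen peroxide, which catalase, the glutathione peroxidases and the peroxiredoxins then reduce to water. For the glutathione peroxidases and the peroxiredoxins, glutathione and thioredoxin supply the electrons. The transcription factor NRF2 (gene Nfe2l2) raises many of these genes when it is released from its inhibitor KEAP1.

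The Prdm16 group carried floxed alleles of Prdm16 on both chromosomes together with a tamoxifen-inducible Cre at Pdgfra (Prdm16Flox/Flox::Pdgfr<alpha>Cre-ERT/+), so that deletion is directed to cells that express Pdgfra. The WT group carried the same floxed alleles without the Cre (Prdm16Flox/Flox::Pdgfr<alpha>+/+). All mice were adult, received tamoxifen for 5 days and cardiotoxin into muscle 7 days later, and their FAPs were sorted 5 days after injury and grown for 4 to 5 days. RNA was sequenced by SMART-seq2 in 2 Prdm16 and 3 WT libraries. H3K9me2 domains came from 3 libraries of each genotype and LaminB1 domains from 1 of each. The labels do not say which libraries came from separate animals, so p-values measure the spread between these libraries.

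The labels and the authors' deposited table do not group the libraries alike. Library totals were 5839587 and 8448654 counts in the Prdm16 libraries and 7053114 to 10657791 counts in the WT libraries. Prdm16 itself had 91 and 86 counts in the libraries labelled Prdm16, against 171, 94 and 59 counts in those labelled WT, so its counts did not separate the groups. On the scaled level these counts were 10.6 and 15.3 CPM, against 16.4, 13.5 and 5.51 CPM. The scaled values overlapped as labelled, and also with WT replicate 3 and Prdm16 replicate 1 exchanged. These counts can include transcript outside the deleted part. The p-values in the authors' deposited table lay within 1% of DESeq2's for 15240 of 15240 genes when WT replicate 3 and Prdm16 replicate 1, as labelled, were exchanged, and for 179 (1.17%) as labelled. The library labelled Prdm16 replicate 2 held 15 counts of Xist, the RNA of the inactive X chromosome, against 4116 in Prdm16 replicate 1 and 3483 to 4652 in the WT libraries. It also held 372 counts of Ddx3y and 436 of Eif2s3y, both on the Y chromosome, against 0 to 2 in the other libraries. By these transcripts 1 Prdm16 library came from male cells and the other 4 libraries from female cells. Directions below follow the labels. For the 10 members the value with the doubtful pair exchanged is given as well. For the pathway genes it is given where the sign turned and in a few other places. FAP identity was checked with 8 marker genes, including Pdgfra, Ly6a and Dcn. They summed to 6628 and 6396 CPM in the Prdm16 libraries and to 6650, 7191 and 3532 CPM in WT replicates 1, 2 and 3, with none at 0, so WT replicate 3 was lowest.

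The sequences before the transcription starts of Sod1, Prdx1 and Nqo1 are shown because the RNA of these genes behaved in 3 different ways and because the core of the NRF2 binding element, TGACNNNGC, is present in the windows of Sod1 and Prdx1 and not in that of Nqo1. Each line gives the 250 bases before the start in RefSeq (GRCm38.p6), 5′ to 3′ on the strand of the gene, with a match to the core on either strand in capitals.
Sod1, chr16:90220512-90220761, plus strand: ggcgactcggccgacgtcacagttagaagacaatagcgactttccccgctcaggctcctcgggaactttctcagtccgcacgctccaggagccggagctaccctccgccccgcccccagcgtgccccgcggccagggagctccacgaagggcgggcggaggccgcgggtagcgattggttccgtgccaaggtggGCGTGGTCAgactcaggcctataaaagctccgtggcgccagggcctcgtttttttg
Prdx1, chr4:116685349-116685598, plus strand: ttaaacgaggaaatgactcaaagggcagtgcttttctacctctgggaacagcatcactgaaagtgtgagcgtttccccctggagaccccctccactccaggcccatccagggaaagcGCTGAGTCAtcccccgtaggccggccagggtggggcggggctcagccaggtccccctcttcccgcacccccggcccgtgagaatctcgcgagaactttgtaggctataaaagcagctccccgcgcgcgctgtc
Nqo1, chr8:107403206-107403455, minus strand: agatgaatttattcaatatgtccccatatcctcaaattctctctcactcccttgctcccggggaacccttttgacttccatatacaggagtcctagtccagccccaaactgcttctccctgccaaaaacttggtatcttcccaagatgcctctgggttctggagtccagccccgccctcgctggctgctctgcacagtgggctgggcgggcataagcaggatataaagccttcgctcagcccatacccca
The match began 56 bases before the start in Sod1 and 133 bases before it in Prdx1, where it overlapped the AP-1 element TGANTCA. Nqo1 held no match in this window. Bases farther upstream were not searched, so no match here does not mean that a gene lacks the element. The part of this element in the RNA values was not tested. Of 32851 RefSeq promoters 10.16% held at least 1 match to the core in the same 250 bases, and 6.75% held TGANTCA. Upstream sequence was matched for 8 of the 10 genes, and Cat, Gpx1, Gpx4, Sod2 and Txn1 held no match to the core in theirs.

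Of the 3 superoxide dismutases, Sod1 was the one whose values in the libraries labelled Prdm16 all lay below those labelled WT. Sod1, the copper and zinc enzyme of the cytosol (chromosome 16, 90220762 to 90226333), had 293 and 224 CPM in Prdm16 replicates 1 and 2, against 622, 358 and 510 CPM in WT replicates 1, 2 and 3. CPM scales counts to a common library total after TMM scaling. Both Prdm16 libraries lay below all WT libraries, but the gap from 293 CPM in Prdm16 replicate 1 to 358 CPM in WT replicate 2 was smaller than the spread among the WT libraries, whose highest value was 1.74 times their lowest. Sod1 averaged 259 ± 48.8 CPM (SD, n = 2) in Prdm16 and 497 ± 133 CPM (SD, n = 3) in WT, a log2 fold change of -0.94 (SE 0.27). It was -0.21 with the doubtful pair exchanged and -1.15 with that pair left out.

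Library depth and composition ran along with Sod1 in the libraries highest in it, and not in the order of the rest. WT replicates 1 and 3, the libraries highest in Sod1, had 10657791 and 10284864 counts, and the 10 most abundant genes of each took 5.49% and 5.52% of its counts. The 10 most abundant genes of each other library took 7.12% and 9.93% in Prdm16 replicates 1 and 2 and 7.69% in WT replicate 2. Mitochondrial transcripts made up 1.83% and 2.32% of counts in Prdm16 replicates 1 and 2, against 1.40%, 2.20% and 1.55% in WT replicates 1, 2 and 3. WT replicate 2 had 358 CPM of Sod1 and 7053114 counts, against 293 CPM and 8448654 counts in Prdm16 replicate 1. The part of depth or composition in the Sod1 values was not tested.

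Sod2, the manganese enzyme of mitochondria (chromosome 17, 13007839 to 13018119), was nearly level. It had 137 and 123 CPM in Prdm16 replicates 1 and 2, against 143, 132 and 124 CPM in WT replicates 1, 2 and 3, and the groups overlapped. Its log2 fold change came to -0.03 (SE 0.18), or -0.15 with the doubtful pair exchanged, and the highest library was 1.16 times the lowest.

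Sod3, the enzyme secreted into the matrix (chromosome 5, 52363804 to 52369738), was measured at low counts. It had 42 and 79 counts in Prdm16 replicates 1 and 2, against 140, 47 and 12 counts in WT replicates 1, 2 and 3. On the scaled level these were 4.90 and 14.03 CPM in Prdm16 and 13.5, 6.74 and 1.12 CPM in WT, so the groups overlapped and WT libraries alone spanned 12-fold. The log2 fold change of 0.40 had an SE of 0.95 and was -0.21 with the doubtful pair exchanged. Leaving out a Prdm16 library gave 0.96 without replicate 1 and -0.52 without replicate 2. Leaving out a WT library gave 1.28 without replicate 1, 0.36 without replicate 2 and -0.12 without replicate 3, the library with the lowest FAP marker sum. The part of FAP content in the Sod3 values was not tested. In bulk RNA, fewer cells of a type and less RNA per cell cannot be told apart.

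**Figure D1:**
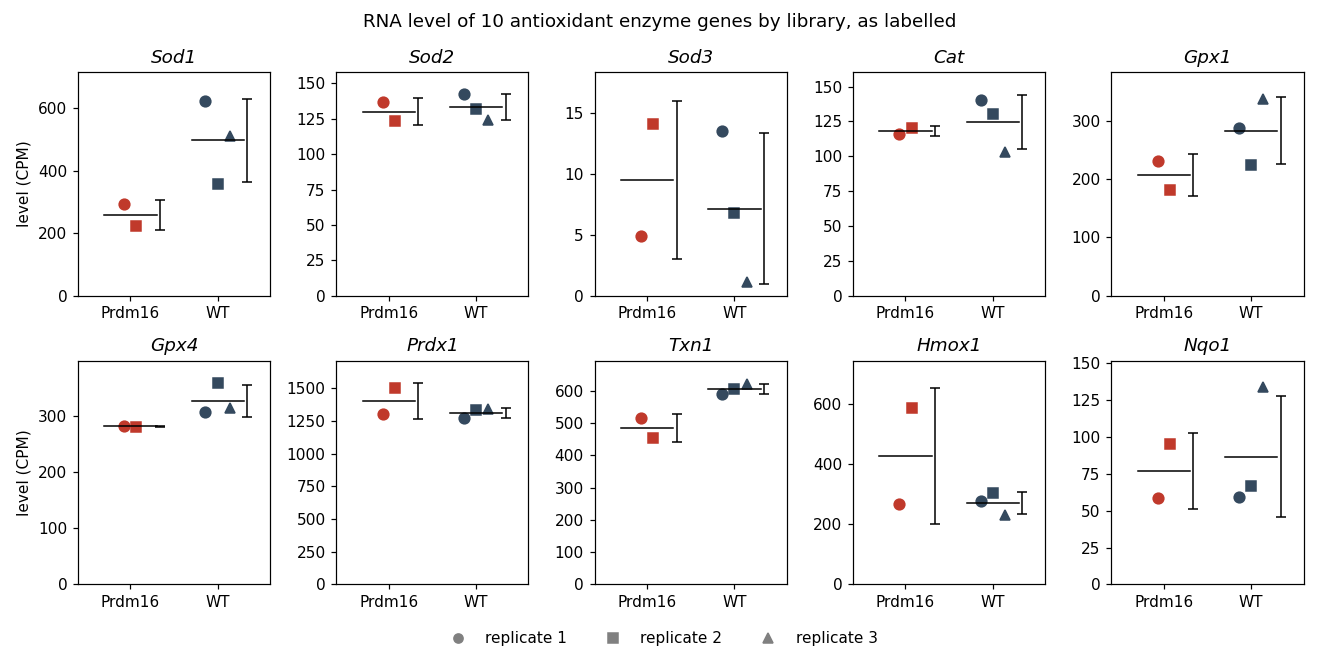
Level in CPM (y axis, from 0) of the 10 genes in the libraries labelled Prdm16 (red, n = 2) and WT (blue, n = 3); symbols mark replicates, lines are means and bars beside them SD. Sod1, Gpx4 and Txn1 are the 3 genes whose Prdm16 points lie below all WT points.

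Among the enzymes that remove peroxide, Gpx1 and Gpx4 had lower means in the Prdm16 libraries, and Cat and Prdx1 were nearly level. Cat, the catalase of peroxisomes (chromosome 2, 103453904 to 103485153), had 116 and 120 CPM in Prdm16 replicates 1 and 2, against 140, 131 and 103 CPM in WT replicates 1, 2 and 3. The Prdm16 values lay within the WT range, with a log2 fold change of -0.08 (SE 0.20), or -0.21 with the doubtful pair exchanged.

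Gpx1, a glutathione peroxidase that carries selenocysteine (chromosome 9, 108339080 to 108340342), had 232 and 181 CPM in Prdm16 replicates 1 and 2, against 289, 224 and 338 CPM in WT replicates 1, 2 and 3. WT replicate 2 lay between the Prdm16 libraries, so the groups overlapped. The log2 fold change came to -0.46 (SE 0.23), and 0.07 with the doubtful pair exchanged. Of the other 9 members Gpx1 was nearest to Sod1 over the 5 libraries, with a root mean square difference of 0.29 in centred log2 CPM. Gpx1 itself lay nearer to Txn1 (0.20) than to Sod1.

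Gpx4, the selenoprotein that reduces lipid peroxides in membranes (chromosome 10, 80047166 to 80056439), had 282 and 280 CPM in Prdm16 replicates 1 and 2, against 307, 358 and 313 CPM in WT replicates 1, 2 and 3. The groups did not overlap, and the log2 fold change came to -0.21 (SE 0.17), or -0.09 with the doubtful pair exchanged. A pseudogene copy, Gpx4-ps2, held 319 and 208 counts in the Prdm16 libraries and 446, 363 and 474 counts in the WT libraries, against 2415, 1579, 3193, 2495 and 3351 counts of Gpx4 in the same libraries. Counts of Gpx4 are therefore uncertain to the extent that reads were split between the copies. Txn-ps1, a copy of Txn1, held at most 6 counts in a library.

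Prdx1, a peroxiredoxin of the cytosol (chromosome 4, 116685599 to 116700000), had 11198 and 8460 counts in the Prdm16 libraries and 13199, 9285 and 14368 counts in the WT libraries. This was 1307 and 1503 CPM in Prdm16, against 1270, 1331 and 1341 CPM in WT. The groups overlapped, with a log2 fold change of 0.10 (SE 0.18), or 0.13 with the doubtful pair exchanged. Prdx1 overlaps a long non-coding RNA gene in the annotation over 424 bases, and the sources used here do not say whether the counting used strand.

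Txn1, the cytosolic thioredoxin that recycles peroxiredoxins (chromosome 4, 57943373 to 57956411), had 515 and 453 CPM in Prdm16 replicates 1 and 2, against 590, 606 and 621 CPM in WT replicates 1, 2 and 3. The WT libraries lay close together, with the highest 1.05 times the lowest, and both Prdm16 libraries lay below them. Txn1 averaged 484 ± 43.3 CPM (SD, n = 2) in Prdm16 and 606 ± 15.4 CPM (SD, n = 3) in WT, a log2 fold change of -0.32 (SE 0.17). With the doubtful pair exchanged it was -0.09.

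The stress-induced genes Hmox1 and Nqo1 varied widely between libraries of the same genotype. Hmox1, haem oxygenase (chromosome 8, 75093618 to 75100593), breaks down haem and is induced through NRF2. It had 268 and 588 CPM in Prdm16 replicates 1 and 2, against 278, 304 and 232 CPM in WT replicates 1, 2 and 3. Prdm16 replicate 2 alone stood high, and the log2 fold change of 0.66 (SE 0.32) became -0.0037 without it. It was 0.53 with the doubtful pair exchanged. Prdm16 replicate 2 is also the library with Y-linked transcripts, and the part of sex in the Hmox1 value was not tested.

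Hmox1 is abundant in macrophages, so 8 macrophage genes were read beside it. They summed to 23.8 and 32.7 CPM in Prdm16 replicates 1 and 2, against 24.7, 19.9 and 19.3 CPM in WT replicates 1, 2 and 3. Adgre1 and C1qa, which define macrophages, were at 0 in all 5 libraries. Cd14 made up most of the sum, with 25.6 CPM in Prdm16 replicate 2. The part of macrophages in the Hmox1 values was not tested.

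Nqo1, a quinone reductase and a standard target of NRF2 (chromosome 8, 107388225 to 107403205), had 58.8 and 94.8 CPM in Prdm16 replicates 1 and 2, against 59.5, 66.7 and 134 CPM in WT replicates 1, 2 and 3. WT replicate 3 was highest and Prdm16 replicate 2 second, and the groups overlapped. The log2 fold change came to -0.17 (SE 0.39), and 0.89 with the doubtful pair exchanged (edgeR adjusted p = 0.095).

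Calls in the authors' deposited table have an adjusted p under 0.1 and a log2 fold change of at least 0.5 in size, a looser limit on p than the 0.05 used elsewhere here. In the authors' deposited table Nqo1 was the member called, as upregulated, with a log2 fold change of 0.72 and an adjusted p of 0.045. That table gave an adjusted p to 5 of the 10 members and called 7.55% of the 6237 genes with one, 1.97% as upregulated. With the grouping that its p-values match, Nqo1's call there sets WT replicate 3 and Prdm16 replicate 2 against the other libraries. The authors' deposited table gave Sod1 a log2 fold change of -0.06 and Hmox1 0.21, neither called. With the doubtful pair exchanged, edgeR gave -0.21 for Sod1 and 0.53 for Hmox1. The deposited values were thus smaller in size under the grouping that their p-values match. Sizes are therefore not compared between that table and edgeR.

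The same library pair also stood apart in stress programmes. A list of 6 hypoxia genes summed to 1221 and 3570 CPM in Prdm16 replicates 1 and 2, against 1385, 1951 and 2963 CPM in WT replicates 1, 2 and 3. A list of 6 interferon genes summed to 1669 and 94.0 CPM in Prdm16 replicates 1 and 2, against 1754, 2127 and 86.8 CPM in WT replicates 1, 2 and 3. Nqo1 was thus high where the interferon sum was low, and the part of either programme in the Nqo1 values was not tested.

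**Figure D2:**
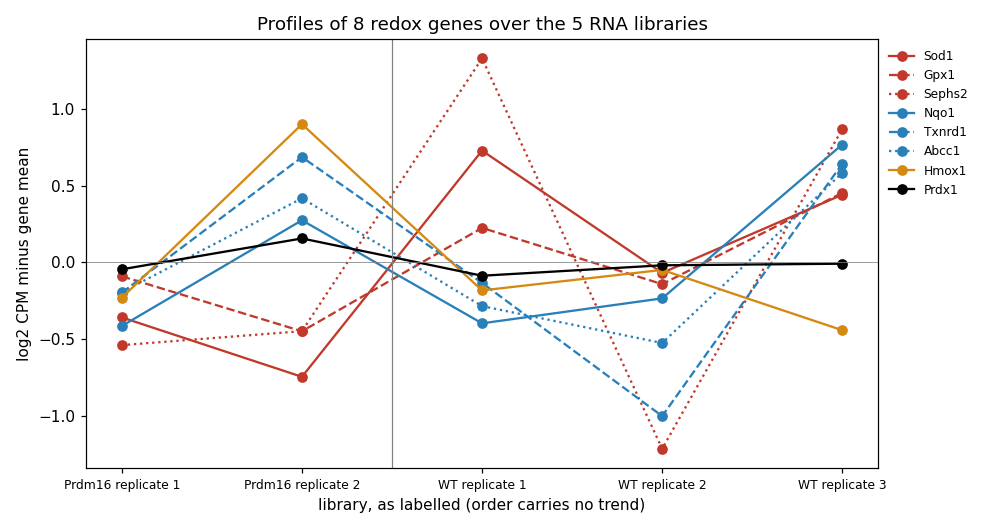
Log2 CPM minus each gene's mean (y axis) for 8 redox genes in the 5 RNA libraries as labelled (x axis); lines join the points of a gene. Sod1, Gpx1 and Sephs2 are high in WT replicates 1 and 3, Nqo1, Txnrd1 and Abcc1 are high in Prdm16 replicate 2 and WT replicate 3, and Prdx1 is nearly flat.

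As labelled, 3 members lay below all WT libraries in both Prdm16 libraries, where 8.96% of all 15240 genes tested did so, and 0 lay above, where 8.83% did. The 3 were Sod1, Gpx4 and Txn1, and since Sod1 was chosen from this comparison nothing is read from the count. By edgeR's quasi-likelihood test with Benjamini-Hochberg adjustment, 0 of the 10 members were called, where 0% of all genes were. DESeq2 and limma-voom also called 0 members. At an unadjusted p under 0.05 edgeR held 1 member as lower, Sod1, the gene the set was chosen for, and 0 as higher, where 1.37% of all genes were lower and 1.11% higher. The median log2 fold change of the 10 was -0.13, beside 5e-04 over all genes tested. When no gene was filtered out, edgeR called 0.0777% of 32193 genes, and Sod1 was among them (adjusted p = 0.021). The adjusted p of Sod1 was 0.9996 with the filter, and Sod1 was not called under the other 13 alternatives. With the doubtful pair left out edgeR called 0.614% of genes and 0 members.

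**Figure D3:**
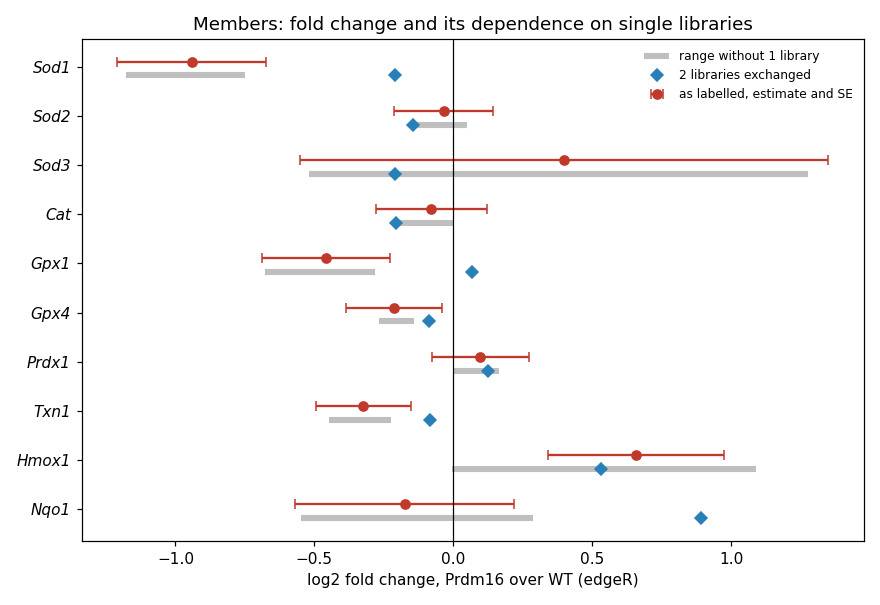
Log2 fold change of Prdm16 over WT (x axis) for each member, as labelled with its SE (red), its range when 1 library was left out (grey bar) and its value with WT replicate 3 and Prdm16 replicate 1 exchanged (blue diamond). Sod1 is at -0.94 as labelled and -0.21 on exchange, Nqo1 is at -0.17 as labelled and 0.89 on exchange, and the grey bar of Hmox1 reaches 0.

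Genes whose profile was most like that of Sod1 were sought among the 4346 protein-coding genes that averaged 50 CPM or more. The nearest 5 by root mean square difference in centred log2 CPM over the 5 libraries were Mrfap1 (0.13), Dek (0.13), Tspyl1 (0.14), Mtx2 (0.15) and Snrpc (0.16). Mtx2, which helps import proteins into mitochondria, had 36.8 and 30.2 CPM in Prdm16 replicates 1 and 2, against 99.2, 41.6 and 65.4 CPM in WT replicates 1, 2 and 3. Dek, a chromatin protein, had 49.7 and 41.2 CPM in Prdm16, against 96.5, 51.2 and 76.7 CPM in WT. As with Sod1, WT replicates 1 and 3 were high and WT replicate 2 lay near the Prdm16 libraries.

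The surrounding pathway was read in 107 other genes in 12 lists, of which 100 were tested. By edgeR 0 rose and 0 fell, with 1 at an unadjusted p under 0.05, and DESeq2 and limma-voom also called 0. Over all genes tested 7634 log2 fold changes were positive and 7606 negative. Of the 100 tested pathway genes 41 had positive and 59 negative log2 fold changes, with a median of -0.09. Both Prdm16 libraries lay above all WT libraries for 4 of them and below for 12, where 8.83% and 8.96% of all genes tested did so, and the 1 gene at an unadjusted p under 0.05 was higher, as 1.11% of all genes were. With the doubtful pair exchanged 39 were positive and 61 negative, with a median of -0.07. On exchange 28 of the 100 had the opposite sign to that as labelled. Counts and medians of the single lists below hold for the labels alone. Of the genes named below from their lists, Slc31a1 (-0.0064), Gpx8 (0.02), Txnrd2 (0.28), Blvrb (0.03), Sephs2 (0.08), Secisbp2 (-0.0024), Xdh (-0.53) and Mt2 (-0.01) had the opposite sign on exchange.

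The authors' deposited table called 7.55% of the 6237 genes with an adjusted p, 1.97% as upregulated. It gave an adjusted p to 60 of the 107 genes and called 3 as upregulated and 6 as downregulated. The 3 were Tfrc (log2 fold change 1.46), Txnrd1 (0.85) and Abcc1 (0.68). The 6 in the authors' deposited table were Ggt5 (-1.81), Oplah (-1.44), Gstt1 (-0.92), Slc40a1 (-0.89), Selenop (-0.82) and Gpx3 (-0.69), of which Gstt1, Selenop and Gpx3 had an adjusted p above 0.05 (0.083, 0.072 and 0.089).

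The partners of SOD1 were read first. Atox1, a copper chaperone, had 191 and 184 CPM in the Prdm16 libraries, against 280, 239 and 216 CPM in the WT libraries, a log2 fold change of -0.38 (SE 0.19). Ccs, the chaperone that loads copper into SOD1, was chosen for that role after its values were seen. It had 93.4 and 75.1 CPM in Prdm16, against 112, 102 and 73.2 CPM in WT, and the groups overlapped. The copper importer Slc31a1 had a log2 fold change of 0.14.

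Of the peroxiredoxin list 2 of 6 tested genes were positive, with a median of -0.07. Prdx2 of the cytosol (-0.17) and Prdx4 of the endoplasmic reticulum (-0.24) had the smallest p. Of the remaining glutathione peroxidases 3 were tested, all with negative log2 fold changes, and Gpx2, Gpx5 and Gpx6 had 0 counts in all 5 libraries. Gpx3, which is secreted, had 285 and 296 CPM in Prdm16 replicates 1 and 2, against 686, 357 and 137 CPM in WT replicates 1, 2 and 3, so the WT range took in both Prdm16 values. Gpx3 was one of the genes called as downregulated in the authors' deposited table. Gpx8 had a log2 fold change of -0.08.

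In the thioredoxin and glutaredoxin list 8 of 10 tested genes were negative, with a median of -0.32. Txnrd2, the mitochondrial thioredoxin reductase, had 10.6 and 12.8 CPM in Prdm16 replicates 1 and 2, against 24.7, 11.6 and 25.1 CPM in WT replicates 1, 2 and 3. Glrx5, a mitochondrial glutaredoxin of iron-sulfur cluster assembly, had 23.5 and 16.0 CPM in Prdm16, against 61.4, 16.1 and 36.9 CPM in WT. In both genes WT replicates 1 and 3 were high and WT replicate 2 lay beside or between the Prdm16 libraries. Txnip, which binds and inhibits thioredoxin, had the lowest log2 fold change of the list, -1.81 with an SE of 1.27, and was chosen after its values were seen. It had 10.3 and 17.9 CPM in the Prdm16 libraries, against 5.58, 105 and 38.0 CPM in WT replicates 1, 2 and 3, so WT replicate 2 alone was high and the groups overlapped. On exchange of the doubtful pair the log2 fold change was -0.34 for Glrx5 and -0.50 for Txnip.

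In glutathione synthesis and recycling most values were positive, with 9 of 11 tested genes positive and a median of 0.18. Gss, glutathione synthetase, had 62.5 and 72.3 CPM in the Prdm16 libraries, against 49.6, 44.0 and 60.3 CPM in the WT libraries. Chac2, which degrades glutathione, had 22.6 and 25.9 CPM in Prdm16, against 16.7, 20.5 and 18.3 CPM in WT. These were the 2 genes of the list whose Prdm16 values lay above all WT values, as 8.83% of all genes tested did, and neither passed the test. Ggt5, a surface enzyme that cleaves glutathione, passed it with the doubtful pair exchanged (log2 fold change -1.93, edgeR adjusted p = 0.024, where 1.19% of all genes were called).

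Of the glutathione transferases 11 of 17 tested genes were negative, with a median of -0.18. Mgst3, a microsomal transferase, had 39.3 and 31.4 CPM in the Prdm16 libraries, against 57.4, 54.5 and 41.7 CPM in the WT libraries. Gstm1 had 170 and 158 CPM in Prdm16, against 257, 386 and 167 CPM in WT replicates 1, 2 and 3. Genes of the Gstm cluster are close in sequence, so reads may be split between them and the counts of Gstm1 are uncertain.

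NRF2 and its regulators were nearly balanced, with 4 of 10 tested genes positive and a median of -0.06. Nfe2l2, the gene of NRF2, had a log2 fold change of -0.02 and Keap1 -0.31, both chosen for their roles after their values were seen. Mafk, a small MAF protein that pairs with NRF2 on DNA, was the 1 pathway gene at an unadjusted p under 0.05. It had 31.4 and 29.7 CPM in the Prdm16 libraries, against 19.5, 20.8 and 22.7 CPM in the WT libraries, a log2 fold change of 0.54 (SE 0.22) (edgeR adjusted p = 0.9996). With the doubtful pair exchanged the log2 fold change of Mafk was 0.13. Rbx1, a subunit of the ligase that marks NRF2 for degradation, had a log2 fold change of -0.27.

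Other known targets of NRF2 were set beside Nqo1 after their values were seen. Txnrd1, the cytosolic thioredoxin reductase, had 93.6 and 173 CPM in Prdm16 replicates 1 and 2, against 97.8, 53.6 and 168 CPM in WT replicates 1, 2 and 3. Abcc1, an exporter of glutathione conjugates, had 289 and 442 CPM in Prdm16, against 272, 230 and 496 CPM in WT. Both were high in Prdm16 replicate 2 and WT replicate 3, as Nqo1 was. Gclm, the regulatory subunit of the enzyme that starts glutathione synthesis, had 18.9 and 35.2 CPM in Prdm16, against 22.4, 19.4 and 29.3 CPM in WT, again highest in these libraries. Slc7a11, the cystine importer, had 12.4 and 27.4 CPM in Prdm16, against 19.7, 11.5 and 20.9 CPM in WT. Other targets did not follow Nqo1. Srxn1, which repairs peroxiredoxins, had 49.5 and 78.5 CPM in Prdm16, against 67.4, 37.6 and 57.1 CPM in WT, so WT replicate 1 exceeded WT replicate 3. Gsr, glutathione reductase, had 17.2 and 27.7 CPM in Prdm16 and was highest in WT replicate 1, with 33.3, 10.2 and 20.4 CPM in WT. Hmox1 was lowest in WT replicate 3, where Nqo1 was highest.

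The NADPH supply list was level, with 5 of 11 tested genes positive and a median of -0.0068. Pgls, of the pentose phosphate pathway, had 153 and 151 CPM in the Prdm16 libraries, against 247, 200 and 179 CPM in the WT libraries. Nadk2, which makes NADP in mitochondria, had a log2 fold change of 0.37. Among haem and iron genes 5 of 8 were positive with a median of 0.09, and the biliverdin reductases Blvra (-0.32) and Blvrb (-0.24) had the smallest p. Both lay below all WT libraries, as 8.96% of all genes tested did. Tfrc, the transferrin receptor, was called with the doubtful pair exchanged (log2 fold change 1.55, edgeR adjusted p = 0.0019).

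In the list around selenoproteins and their synthesis 10 of 13 tested genes were negative, with a median of -0.33. Gpx1 and Gpx4 need selenocysteine, and the genes that make or insert it went both ways. Sephs2 (-1.17), Eefsec (-0.41) and Pstk (-0.29) were negative, and Secisbp2 (0.16) and Sepsecs (0.28) positive. These genes were chosen for their roles after their values were seen. Selenow had 424 and 298 CPM in Prdm16 replicates 1 and 2, against 706, 481 and 414 CPM in WT replicates 1, 2 and 3. Msrb1, which repairs oxidised methionine, had 11.4 and 9.95 CPM in Prdm16, against 22.2, 12.04 and 17.6 CPM in WT. Sephs2, which makes the selenium donor for selenocysteine, was chosen after its values were seen. It had 11.7 and 12.4 CPM in Prdm16, against 42.6, 7.31 and 31.0 CPM in WT, so WT replicates 1 and 3 were high and WT replicate 2 was the lowest of all.

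Sources of superoxide and the metallothioneins were read last. Of the oxidase list 3 of 6 tested genes were positive, with a median of 0.12. Xdh, xanthine dehydrogenase, had 410 and 279 CPM in the Prdm16 libraries, against 335, 270 and 190 CPM in the WT libraries. Cyba, a membrane subunit of NADPH oxidases, had a log2 fold change of -0.21. The metallothioneins Mt1 and Mt2, which bind zinc and copper, had log2 fold changes of -0.06 and 0.30.

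**Figure D4:**
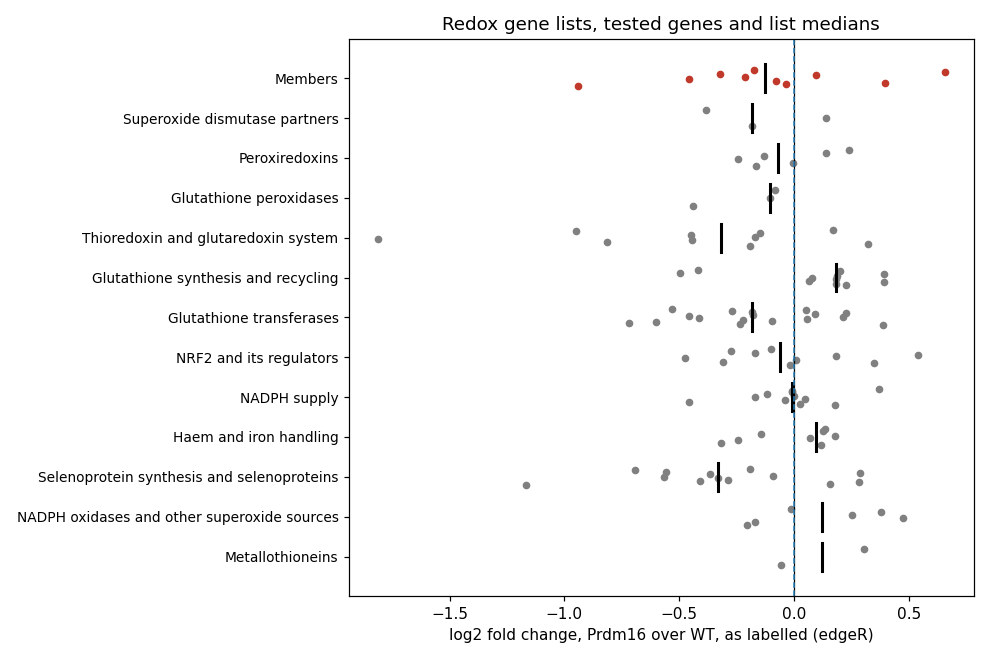
Log2 fold change of Prdm16 over WT as labelled (x axis) for the tested genes of the 10 members (red) and of 12 redox lists (grey); black bars are list medians and the dashed line is the median over all genes tested. The list medians lie between -0.33 for selenoproteins and 0.18 for glutathione synthesis.

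Myogenic content differed between the libraries as well. The 7 myoblast markers summed to 167 and 213 CPM in Prdm16 replicates 1 and 2, against 80.4, 83.7 and 240 CPM in WT replicates 1, 2 and 3. The 6 muscle fibre genes summed to 678 and 853 CPM in Prdm16, against 154, 286 and 582 CPM in WT. The 4 endothelial markers summed to 6.22 and 7.59 CPM in the Prdm16 libraries and 3.56 to 6.25 CPM in the WT libraries. Of 6 erythroid genes Hba-a2, Hbb-bs and Hbb-bt were at 0, and the sum was 7.47 and 8.35 CPM in Prdm16, against 3.17 to 7.31 CPM in WT. The part of these cell types in the members' values was not tested.

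Repressed chromatin around the 10 genes was read in libraries that played no part in choosing them, with positions on GRCm38 (mm10). H3K9me2 marks large silent domains, and LaminB1 domains mark chromatin at the nuclear lamina. Within 50 kb of the gene bodies, domains of H3K9me2 covered on average 3.97% ± 6.88 of the 10 windows in Prdm16 libraries and 3.97% ± 5.31 in WT libraries (SD, n = 3 each). The difference was 0.0 percentage points (exact two-sided permutation test, p = 1, where the smallest possible p is 0.1). Over 13574 tested genes with a position, the same mean was 3.84% to 4.62% in the Prdm16 libraries and 4.12% to 6.58% in the WT libraries.

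This coverage came from Sod2 and Sod3. Sod3 lay wholly inside a domain of 252 kb (chromosome 5, 52218001 to 52470000) in Prdm16 replicate 1 and in WT replicate 2, with the same ends in both. In the other libraries the nearest domain was up to 302 kb away. Of the 13574 genes, 5 (0.037%) were wholly covered in these 2 libraries and touched in no other. The pattern was set from the values of Sod3, so this share does not measure how unusual Sod3 is. Beside Sod2, a domain beginning at 13047001 on chromosome 17 reached into the window in Prdm16 replicate 1 and WT replicate 1 and covered 19.15% of it. LaminB1 also neighboured Sod2, beginning 5.9 kb from the gene in Prdm16 and 1.9 kb from it in WT and covering 40.0% of the window in Prdm16 and 43.6% in WT.

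The other 8 genes had no domain within 50 kb in any library. Over the 13574 tested genes with a position, an H3K9me2 domain lay this near for 8.59% to 10.81% in Prdm16 libraries. It did so for 9.85% to 14.02% in WT libraries. A LaminB1 domain did so for 2.7% in Prdm16 and 6.7% in WT, so most genes had none in a given library. Their median distance to H3K9me2 was 582 to 914 kb in Prdm16 libraries and 497 to 792 kb in WT libraries. To LaminB1 it was 1442 kb in Prdm16 and 912 kb in WT. From Sod1 the nearest H3K9me2 domain was 242 to 2975 kb away in Prdm16 libraries and 458 to 467 kb in WT libraries, and the nearest LaminB1 domain 569 kb in Prdm16 and 461 kb in WT. From Txn1 H3K9me2 lay 1831 to 3067 kb away in Prdm16 and 1978 to 3208 kb in WT. From Nqo1 it lay 210 to 564 kb away in Prdm16 and 207 to 714 kb in WT. Gpx4 had the farthest LaminB1 domain of the 10 genes in Prdm16, at 6323 kb, against 567 kb in WT. LaminB1 domains covered 331 Mb in the Prdm16 library and 693 Mb in the WT library, and with 1 library of each this difference has no replicate check.

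**Figure D5:**
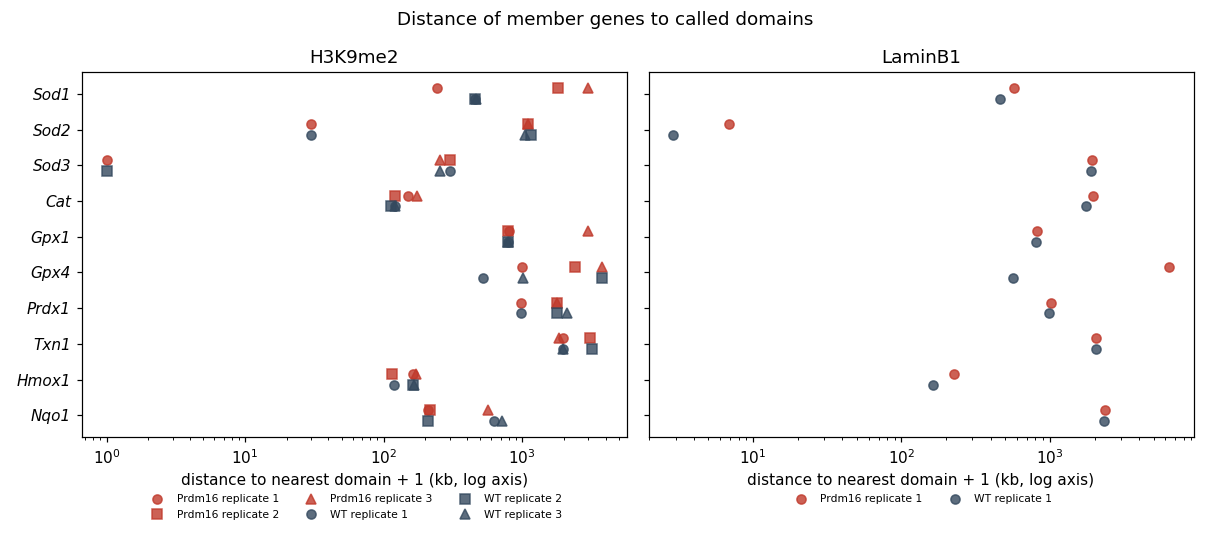
Distance plus 1 kb (x axis, log scale) from each member gene to the nearest H3K9me2 domain (left, 3 libraries of each genotype) and LaminB1 domain (right, 1 of each), with Prdm16 in red and WT in blue. Sod3 sits inside an H3K9me2 domain in Prdm16 replicate 1 and WT replicate 2, and Sod2 lies nearest to LaminB1.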

How the data were processed

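The 5 RNA libraries of FAPs (2 Prdm16, 3 WT), 6 libraries of H3K9me2 domains and 2 of LaminB1 domains were used; 8 input samples were not used here. The deposited table held raw counts per gene made by the authors. The authors' deposited comparison table held a mean normalized signal, a log2 fold change with its standard error on the log2 scale, and p-values. The domain lists held the authors' score per domain, and the sources used here do not give its making. The submitters' processing notes name STAR 2.7, Bowtie 1.2.2, featureCounts and DESeq2 1.20 without their roles.

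Counts were fitted with edgeR 4.0.16 (R 4.3.3): default expression filter, trimmed mean of M-values scaling, robust two-sided quasi-likelihood test over 15240 genes with Benjamini-Hochberg adjusted p under 0.05 as the call. SE is the log2 fold change divided by the root of the F statistic. DESeq2 1.42.0, limma 3.58.1, other scalings, no filter, a replicate block, left-out libraries, exchanged labels and no genes on X and Y were alternatives. The main edgeR fit was also run on simulated counts, and its outcome there is not quoted here. Transcript lengths were not used, so levels are not compared between genes. Domains were compared in Python 3.11.15 with scipy 1.17.1; gene positions are RefSeq GRCm38.p6, and the domain files name no build beside the labels' mm10 and GRCm38.

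The members and lists were chosen with earlier results of these data known. Text names the 10 members, called pathway genes, the 2 of each list with the smallest p, and the 5 genes nearest to Sod1; others are said to be chosen after their values were seen.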

Additional observations from a re-analysis of the deposited data

How the results depend on the processing

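Over 14 alternatives, Sod1, Gpx4, Txn1 and Prdx1 kept the sign of their log2 fold change in all 14, with Sod1 between -1.18 and -0.21. Gpx1, Hmox1 and Cat changed sign in 1 alternative each, Sod2 in 2, Sod3 in 4 and Nqo1 in 5. The cause was not tested. Members called stayed at 0 except with no filter on low counts (1, Sod1). Pathway genes called stayed at 0 except with the doubtful libraries exchanged (2, Ggt5 and Tfrc). Over all genes edgeR called 0 as labelled, 1 with upper-quartile scaling, 1 by DESeq2, 25 with no filter, 93 with the doubtful libraries left out, 182 with them exchanged, and 0 to 4 when 1 library was left out. Leaving out a Prdm16 library leaves 1, which is assumed to vary like the WT libraries.

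With a replicate block edgeR called 1 gene over all genes, 0 members and 0 pathway genes. The numbers were not taken to pair samples, since the labels do not say that they do. The deviations of same-numbered RNA libraries correlated at 0.209 and -0.202. Those of H3K9me2 libraries over 1 Mb bins correlated at -0.26, -0.572 and 0.018. These few values cannot decide whether the numbers pair samples. The H3K9me2 difference was 0.0 points with gene bodies alone, 100 kb flanks, higher-scored domains and the replicate block, and -3.97 to 3.01 points when 1 library was left out, with no call. The low counts of Sod3 limit its precision, and 3 against 3 libraries cannot reach a p of 0.05.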
